A study of Mus musculus with 5 samples.

Results

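The BCL-2 family genes examined here were the 10 with the symbols Bcl2, Bcl2l1, Bcl2l11, Mcl1, Bcl2a1b, Bcl2a1d, Bax, Bak1, Bid and Pmaip1, chosen by symbol from 23337 genes in the count files. All 10 were in the files, and all 10 passed the filter on low counts, which left 11299 genes in all. RNA sequencing compared CD8+ T cells taken from tumors of mice given anti-PD-L1 (2 libraries) with those of mice given Control IgG (3 libraries). PD-L1 is bound by PD-1, a receptor that restrains T cells, and the antibody (clone 10F.9G2) blocks this binding, while the control was a rat IgG2b against KLH. Each mouse received 200 µg of either into the peritoneum, first on day 3 after cell transfer and again on day 6. In both groups the T cells came from C57BL/6J CD45.1 OT-I mice 6 to 12 weeks old, in which CD8+ T cells carry a transgenic receptor for a peptide of ovalbumin. They had been activated in culture through CD3 and CD28, kept in interleukin-2, and injected into mice carrying B16-OVA, a melanoma line that makes ovalbumin. Tumors were taken on day 8, or earlier at a diameter of 1.2 cm, and live CD8+ CD45.1+ cells were sorted. Tumors of several mice of 1 group were pooled before the sort, so each library is a pool and p-values measure the spread between pools.

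BCL-2 proteins control whether a cell's mitochondria release the factors that start apoptosis. BAX and BAK open pores in the outer mitochondrial membrane, the pro-survival proteins BCL-2, BCL-XL, MCL-1 and A1 hold them in check, and BH3-only proteins such as BIM, BID and NOXA bind the pro-survival proteins or activate the pore formers. In CD8+ T cells, MCL-1 and BCL-2 depend in part on interleukin-7 and interleukin-15 signals, A1 is induced by T cell receptor signalling through NF-kappaB, and BIM drives the loss of effector cells after a response.

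The libraries held 9985943 to 12830485 counts assigned to genes. The number of genes with any count was 11977 in anti-PD-L1 replicate 1 and 11696 in Control IgG replicate 1, and 13564 to 13801 elsewhere. The genes of the T cell receptor complex and the CD8 coreceptor marked the cells as labelled, with Cd8a at 2040 and 1480 CPM (counts scaled to library size) after anti-PD-L1 and at 2160, 1400 and 1410 CPM in controls. Cd4 had at most 16 counts in any library and Foxp3 31 to 75. The B cell markers summed to between 1.39 and 6.13 CPM, mostly Cd79b, with Ebf1 and Pax5 at 0. All levels are CPM scaled by TMM normalisation factors, and a floor of 3 counts lay between 0.223 and 0.28 CPM. In bulk RNA a change in the number of cells of a type and a change in RNA per cell cannot be told apart.

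The pro-survival gene Bcl2a1 exists in mice as a cluster of near-identical copies, and this decides how 2 of the 10 genes can be read. On GRCm38, the assembly that mm10 denotes, Bcl2a1d lies on chromosome 9 from 88723285 to 88731914 on the minus strand. Bcl2a1a lies from 88956900 to 88962419 and Bcl2a1b from 89199209 to 89207827, both on the plus strand. Bcl2a1c, a further copy with 1 annotated exon, lies on the same chromosome from 114330135 to 114330578. The coding sequences of Bcl2a1b, Bcl2a1d and Bcl2a1a in the GENCODE vM21 transcripts are each 516 bases long. Counted from 1 at the first base of the start codon, Bcl2a1d differs from Bcl2a1b at 6 positions, as G4T, T48C, A94C, G312A, C381G and T490A. Bases 1 to 100, shown because they hold 3 of these positions, read as follows, with each base that is not shared by all 3 genes in capitals.
Bcl2a1b: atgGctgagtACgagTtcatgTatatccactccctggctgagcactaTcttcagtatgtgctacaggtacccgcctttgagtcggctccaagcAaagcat
Bcl2a1d: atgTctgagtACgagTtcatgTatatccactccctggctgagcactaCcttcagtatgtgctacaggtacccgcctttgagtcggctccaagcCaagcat
Bcl2a1a: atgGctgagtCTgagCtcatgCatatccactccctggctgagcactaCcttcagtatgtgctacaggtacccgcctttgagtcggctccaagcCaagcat
Bases 301 to 400, which hold G312A and C381G, are shown in the same way.
Bcl2a1b: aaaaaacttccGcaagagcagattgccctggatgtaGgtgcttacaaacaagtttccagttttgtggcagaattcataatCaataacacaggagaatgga
Bcl2a1d: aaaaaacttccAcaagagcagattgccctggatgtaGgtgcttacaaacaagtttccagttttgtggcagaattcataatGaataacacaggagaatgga
Bcl2a1a: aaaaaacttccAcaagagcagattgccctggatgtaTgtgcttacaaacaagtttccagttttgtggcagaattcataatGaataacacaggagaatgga
Of the 50-base windows of the Bcl2a1b transcript, 57.6% also occur in Bcl2a1d, 41.1% in Bcl2a1a and 0.26% in Bcl2a1c. Those found in no other Bcl2a1 copy make up 42.4% of the windows for Bcl2a1b, 20.5% for Bcl2a1d, 31% for Bcl2a1a and 89.6% for Bcl2a1c. The Bcl2a1b exons also share 49.1% of their bases with Gm29094, a gene model at the same locus that is not among the symbols of the count files, and with windows shared with it left out as well, 20.8% remain for Bcl2a1b. How reads that map to several places were treated is not given in the sources used here. The split of counts between Bcl2a1b, Bcl2a1d and Bcl2a1a is therefore uncertain.

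Counts were assigned very unequally to the copies. Bcl2a1b took 78.1% and 81.2% of the summed Bcl2a1 counts in anti-PD-L1 replicates 1 and 2, and 82.6%, 83.3% and 80.4% in Control IgG replicates 1, 2 and 3. Bcl2a1d took 19.9% and 16.8% after anti-PD-L1 and 15.1%, 14.6% and 17.5% in controls. Bcl2a1a had 2 and 5 counts after anti-PD-L1 and 11, 3 and 3 in controls. The bearing of upstream DNA on these counts was not tested. Over the 186 bases aligned, the DNA ahead of Bcl2a1b and Bcl2a1a is almost the same. Their RefSeq promoter entries (GRCm38.p6, plus strand), cut off at the GENCODE start of the gene, cover chr9:89199023-89199208 and chr9:88956670-88956899. They are shown because 185 of 186 aligned bases are identical, with the differing base in capitals.
Bcl2a1b: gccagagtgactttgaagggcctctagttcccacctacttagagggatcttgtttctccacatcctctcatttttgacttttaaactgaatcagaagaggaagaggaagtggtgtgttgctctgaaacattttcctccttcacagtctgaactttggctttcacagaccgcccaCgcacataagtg
Bcl2a1a: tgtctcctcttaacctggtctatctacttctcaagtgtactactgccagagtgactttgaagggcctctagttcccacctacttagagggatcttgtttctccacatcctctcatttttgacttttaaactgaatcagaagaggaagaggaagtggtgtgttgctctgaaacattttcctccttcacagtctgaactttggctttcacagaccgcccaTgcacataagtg

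**Figure D1:**
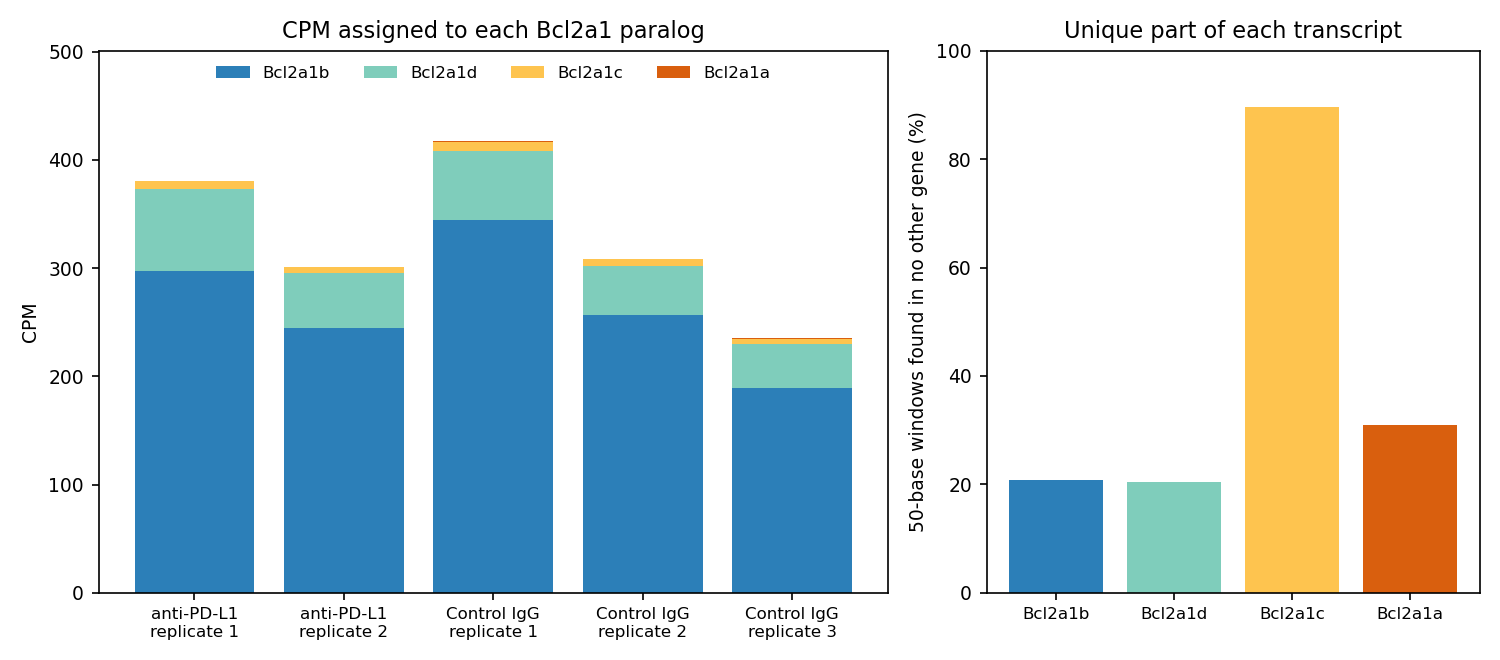
The left panel plots CPM assigned to each Bcl2a1 copy, stacked, in each anti-PD-L1 and Control IgG library, and the right panel the percentage of 50-base windows of each transcript found in no other gene. Bcl2a1b holds 78.1% to 83.3% of each stack, and 20.8% of its windows occur in no other gene, Gm29094 included. Gm29094 is not among the symbols of the count files, and 42.4% of the Bcl2a1b windows occur in no other Bcl2a1 copy.

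Summed over the 4 copies, Bcl2a1 stood at 380 and 301 CPM in the anti-PD-L1 libraries. In Control IgG replicates 1, 2 and 3 it stood at 417, 309 and 235 CPM. The sum is free of the split between copies only if each shared read was counted once, which the sources used here do not give. Both anti-PD-L1 libraries lay inside the range of the controls. For the sum, the log2 fold change was 0.09 ± 0.30 (SE), with a 95% interval of -0.59 to 0.77. Bcl2a1b on its own stood at 297 and 245 CPM after anti-PD-L1, against 345, 257 and 189 CPM in controls, a log2 fold change of 0.04 ± 0.30 with an interval of -0.65 to 0.73. Bcl2a1d stood at 75.7 and 50.6 CPM after anti-PD-L1, against 63.1, 44.9 and 41.2 CPM in controls, a log2 fold change of 0.34 ± 0.31 with an interval of -0.36 to 1.05. For Bcl2a1d, replicate 1 lay above every control and replicate 2 among them. Without anti-PD-L1 replicate 1 the log2 fold change of Bcl2a1d was 0.024, and that of Bcl2a1b was -0.11. The controls themselves were spread widely, with Control IgG replicate 1 highest for Bcl2a1b. That library also had the highest summed level of the dendritic cell and antigen presentation markers, at 324 CPM against 91.8 to 186 CPM in the other 4 libraries, led by H2-Ab1, at 133 CPM against 35.8 to 83.6 CPM, and 3 of the 8 were highest there. The dendritic cell genes Clec9a and Siglech had 0 counts there, and Flt3 had 1. Of the 12 macrophage and monocyte markers, which summed to 2950 and 1500 CPM after anti-PD-L1 and 1770, 1510 and 1560 CPM in controls, mostly from Ly6c2, 6 were highest in the same library and 2 lowest. Among the 6 was C1qb, at 54.6 CPM against 13.4 to 26.8 CPM, while Mrc1 had 0 counts there. The part of such cells in the Bcl2a1 values was not tested.

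None of the 10 genes passed an adjusted p of 0.05 in the comparison of anti-PD-L1 with Control IgG. Over all 11299 tested genes the percentage called by edgeR's quasi-likelihood test was 0, and the adjusted p of each of the 10 genes was 0.9999. At an unadjusted p under 0.05 the test gave 241 genes, 2.13% of those tested, and none of the 10. DESeq2 called 4 genes, 0.0354%, and limma-voom 0, again with none of the 10 among them. Of the 10 fold changes 5 were above 0 and 5 below, with a median of -0.04, beside -0.015 over all tested genes. For 2 genes both treated libraries exceeded all controls, which happened for 7.74% of all tested genes, and below all controls for 1, against 9.58%. Those 3 genes, 2 above and 1 below, were 30% of the 10, beside 17.3% of all tested genes without overlap. They were the 3 BH3-only genes, while all 7 pro-survival and pore-forming genes overlapped between groups. With 5 libraries the tests leave wide intervals, so these results do not show that levels were alike.

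**Figure D2:**
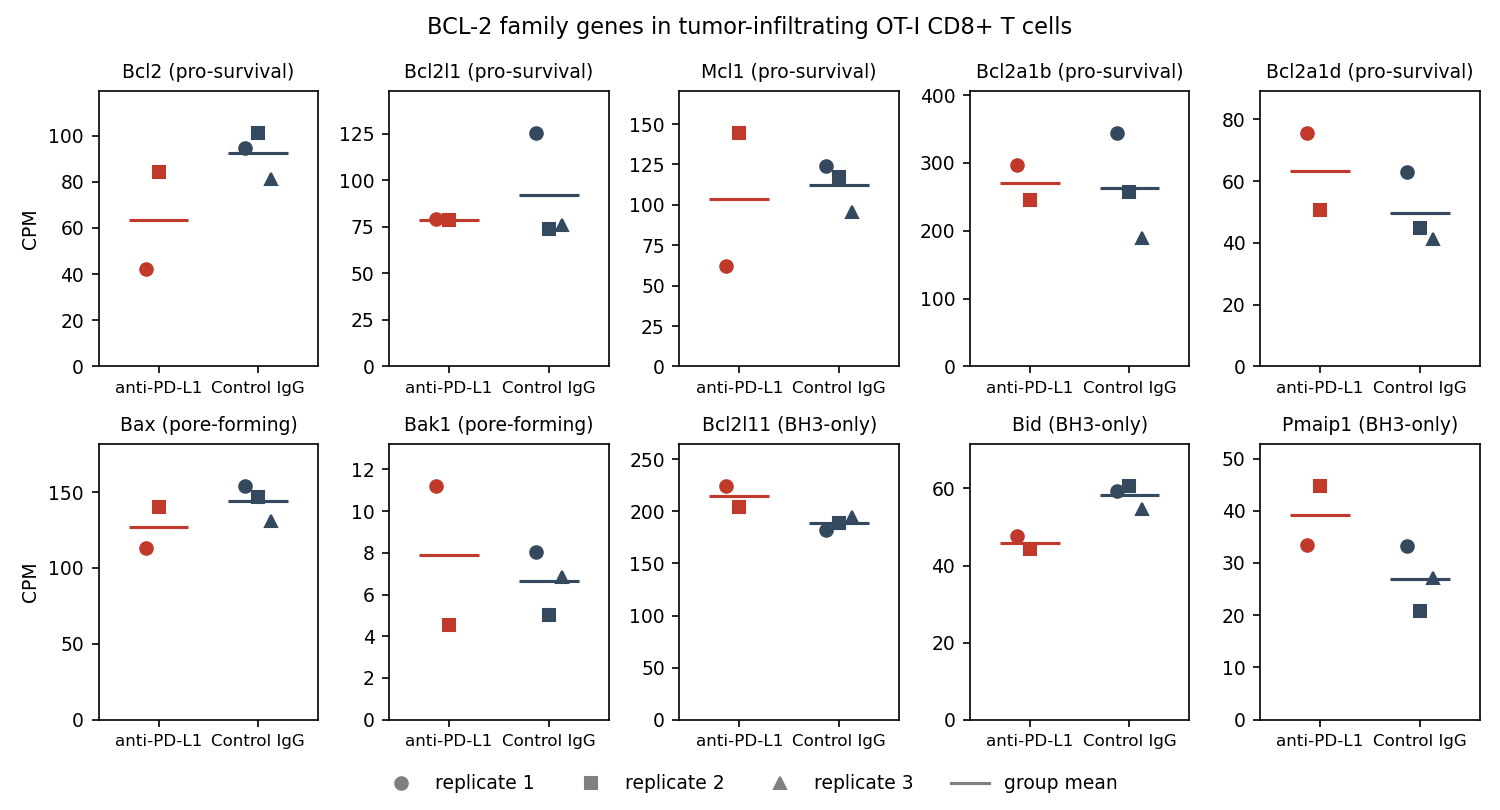
Each panel plots the CPM of 1 gene from 0, with anti-PD-L1 libraries on the left and Control IgG libraries on the right, 1 symbol per library and a line at the group mean. Bcl2l11, Bid and Pmaip1 are the panels without overlap between groups, and Bcl2 and Mcl1 show anti-PD-L1 replicate 1 far below the other 4 libraries.

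Among the pro-survival genes, Bcl2 had the fold change farthest from 0, and 1 library held it there. Bcl2, on chromosome 1 from 106538178 to 106714274, encodes the founding member of the family, which sustains naive and memory T cells. Its level was 42.4 CPM in anti-PD-L1 replicate 1 and 84.2 CPM in replicate 2, against 94.7, 101 and 81.2 CPM in Control IgG replicates 1, 2 and 3. Replicate 1 was the lowest of all 5 libraries, and replicate 2 lay within the controls. Its log2 fold change was -0.55 ± 0.33 (SE), and the 95% interval of -1.30 to 0.21 runs from 0.405-fold to 1.16-fold. Without anti-PD-L1 replicate 1 it was -0.14, and without replicate 2 it was -1.10.

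Mcl1 divided the anti-PD-L1 libraries more than any other pro-survival gene. Its product, MCL-1, is a short-lived protein on which activated T cells depend. Mcl1, on chromosome 3 from 95658788 to 95663176, had 62.1 CPM in anti-PD-L1 replicate 1 and 145 CPM in replicate 2, against 124, 117 and 95.9 CPM in controls. The controls lay between the anti-PD-L1 libraries, which were the lowest and the highest of the 5. The log2 fold change of -0.12 ± 0.36, with an interval of -0.95 to 0.71, therefore averages a low and a high library, and it was 0.36 without replicate 1 and -0.83 without replicate 2.

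Bcl2l1, which encodes BCL-XL, differed more among controls than after treatment. It lies on chromosome 2 from 152780668 to 152831728. It stood at 79.0 and 78.4 CPM after anti-PD-L1, against 126, 73.8 and 76.1 CPM in controls. Control IgG replicate 1 stood above the other 4 libraries, which lay within a few CPM of each other. Bcl2l1 had a log2 fold change of -0.22 ± 0.30, with an interval of -0.92 to 0.47, and without Control IgG replicate 1 the value was 0.07.

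The pore-forming genes differed strongly in level, and the groups overlapped for both. Bax, on chromosome 7 from 45461697 to 45466898, stood at 113 and 140 CPM after anti-PD-L1, against 154, 147 and 131 CPM in controls. Anti-PD-L1 replicate 1 was the lowest library, and replicate 2 lay within the controls. Its log2 fold change was -0.18 ± 0.24, with an interval of -0.73 to 0.36, and without both libraries numbered 1 it was 0.00073. Bak1, which encodes BAK and lies on chromosome 17 from 27019810 to 27029009, had 54 to 121 counts per library, the lowest of the 10 genes. It stood at 11.2 and 4.54 CPM after anti-PD-L1, against 8.04, 5.04 and 6.82 CPM in controls, so that the anti-PD-L1 libraries were again the highest and the lowest. Bak1 had a log2 fold change of 0.24 ± 0.55, with the widest interval of the 10 genes, from -1.01 to 1.5, and it was -0.55 without replicate 1 and 0.78 without replicate 2. Of the annotated Bak1 exon bases 25.5% are shared with Ggnbp1 on the opposite strand, and without strand information reads there cannot be assigned to 1 of the genes.

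The BH3-only genes were the 3 whose groups did not overlap, and all 3 intervals included 0. Pmaip1, which encodes NOXA, an antagonist of MCL-1 and A1 and a p53 target, lies on chromosome 18 from 66458533 to 66465565. It stood at 33.5 and 44.8 CPM after anti-PD-L1, against 33.2, 20.8 and 27.1 CPM in Control IgG replicates 1, 2 and 3. Anti-PD-L1 replicate 2 was clearly the highest library, while replicate 1 barely exceeded Control IgG replicate 1. Group means were 39.1 ± 8.00 CPM (SD, n = 2) after anti-PD-L1 and 27.0 ± 6.17 CPM (SD, n = 3) in controls. Pmaip1 had a log2 fold change of 0.53 ± 0.32 (SE), with an interval of -0.19 to 1.26, or 0.875-fold to 2.4-fold. Over the alternatives tried it ran from 0.33 to 0.89, the highest without both libraries numbered 1.

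Bcl2l11, which encodes BIM, had the smallest standard error of the 10 genes. On chromosome 2 it spans 128126038 to 128162547. It stood at 225 and 204 CPM after anti-PD-L1, against 182, 189 and 195 CPM in controls. Both anti-PD-L1 libraries were above every control. That gave a log2 fold change of 0.18 ± 0.22, and its interval of -0.32 to 0.69 has an upper bound of 1.61-fold. With 2028 to 2741 counts per library, Bcl2l11 was also the most deeply counted BH3-only gene.

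Bid, whose product is cut into its active form by caspase-8 or by granzyme B, was the BH3-only gene on the lower side. It lies on chromosome 6 from 120891930 to 120916853. It stood at 47.5 and 44.2 CPM after anti-PD-L1, against 59.4, 60.7 and 54.6 CPM in controls, and both anti-PD-L1 libraries lay below every control. Group means were 45.9 ± 2.38 CPM (SD, n = 2) after anti-PD-L1 and 58.2 ± 3.23 CPM (SD, n = 3) in controls. Bid had a log2 fold change of -0.34 ± 0.24 (SE), with an interval of -0.91 to 0.22, and it stayed between -0.40 and -0.27 in all 12 alternatives tried. Bid overlaps Bcl2l13, another gene of the family, on the opposite strand over 17.7% of its exon bases. Bcl2l13 stood at 57.9 and 40.2 CPM after anti-PD-L1 and at 39.8, 41.2 and 56.3 CPM in controls, with its groups overlapping.

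**Figure D3:**
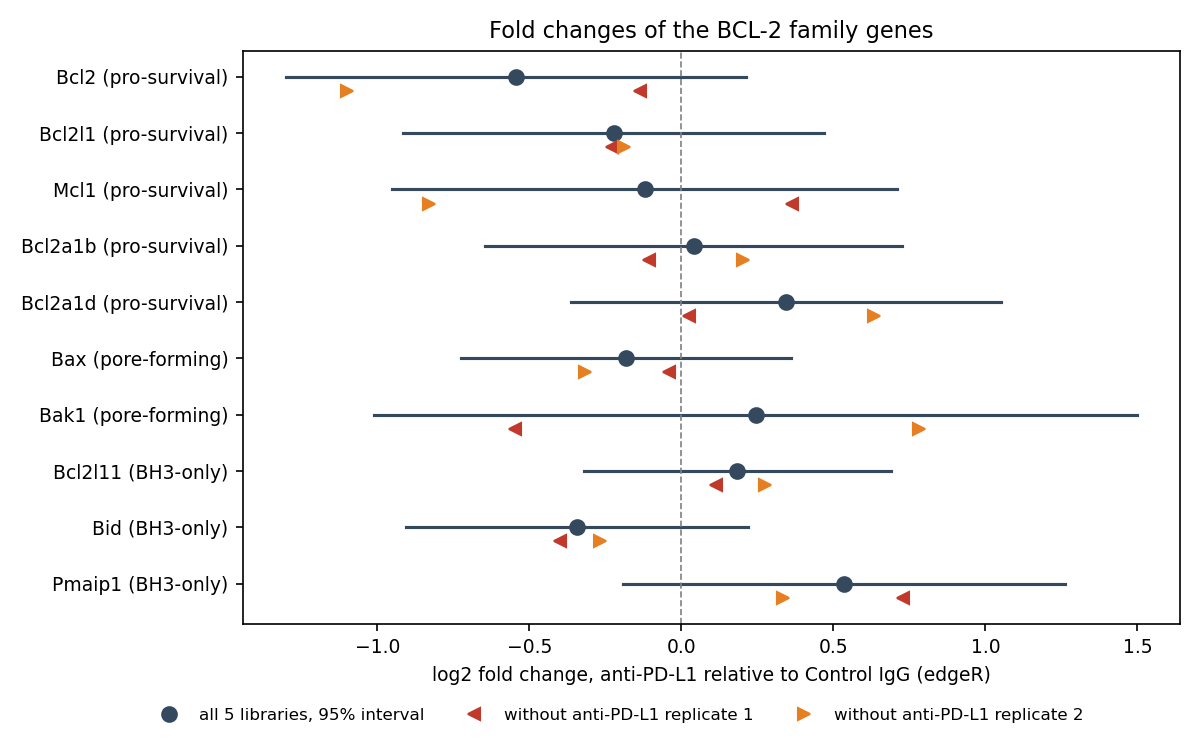
Circles give the log2 fold change of each gene, anti-PD-L1 relative to Control IgG, over all 5 libraries, with its 95% interval as a line, and triangles give the value without 1 of the anti-PD-L1 libraries. All 10 intervals cross 0, and the triangles of Mcl1, Bak1 and Bcl2a1b lie on opposite sides of 0.

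The anti-PD-L1 libraries differed from each other by more than the controls did for 5 of the 10 genes, namely Bcl2, Mcl1, Bak1, Bax and Bcl2l11, as they did for 35.3% of all tested genes. On the log2 CPM scale replicate 1 differed from replicate 2 by -1.22 for Mcl1, by -0.99 for Bcl2 and by 1.27 for Bak1, while the controls ranged over 0.37, 0.32 and 0.66. The summed level of the 10 natural killer markers was also highest in anti-PD-L1 replicate 1, although only 3 of the 8 with any count, Gzma, Klre1 and Fcer1g, were highest there. The sum was 1350 and 769 CPM after anti-PD-L1 and 722, 323 and 231 CPM in controls, of which Gzma and Klre1, also made by effector CD8+ T cells, were the most abundant. The defining natural killer gene Ncr1 had at most 3 counts in any library, and Klra4 and Klra8 had 0. Melanoma markers summed to 44.6 and 104 CPM after anti-PD-L1 and to 4.47, 292 and 93.0 CPM in controls. The part of these differences in the values of the 10 genes was not tested.

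Per kilobase of exon, the scale on which levels of different genes can be set side by side, Bcl2a1b was the most abundant of the 10 genes and Bak1 the least. Bcl2a1b averaged 331 ± 45.4 CPM per kilobase after anti-PD-L1 (SD, n = 2) and 323 ± 95.6 in controls (SD, n = 3). Bax followed with 80.4 ± 11.9 CPM per kilobase after anti-PD-L1 and 91.2 ± 7.56 in controls, then Bcl2a1d with 73.2 ± 20.6 and 57.6 ± 13.6, and Mcl1 with 30.3 ± 17.1 and 32.9 ± 4.33. Bcl2l11 averaged 26.7 ± 1.79 CPM per kilobase after anti-PD-L1 and 23.5 ± 0.782 in controls. Below it stood Bcl2l1, with 17.2 ± 0.0922 after anti-PD-L1 and 20.0 ± 6.38 in controls, and Bid, with 12.9 ± 0.671 and 16.4 ± 0.911. Bcl2 averaged 6.91 ± 3.23 CPM per kilobase after anti-PD-L1 and 10.1 ± 1.12 in controls, Pmaip1 14.3 ± 2.93 and 9.89 ± 2.26, and Bak1 3.27 ± 1.96 and 2.76 ± 0.627. In the controls, Bcl2l11 and Bcl2l1, Bcl2l1 and Bid, and Bcl2 and Pmaip1 were neighbours whose ranges overlapped. After anti-PD-L1, Pmaip1 took place 7 by the mean, ahead of Bid and Bcl2. In anti-PD-L1 replicate 1 alone Pmaip1 stood below Bid, at 12.2 against 13.4 CPM per kilobase. In that library Bcl2a1d (87.7) also exceeded Bax (72.0), and Bcl2l11 (28.0) exceeded Mcl1 (18.2). With the length of the longest transcript the mean of Bid stood ahead of that of Pmaip1, at 19.0 CPM per kilobase for Bid and 14.3 for Pmaip1. The order in controls was the same with that length, except that Mcl1 moved from place 4 to place 6 behind Bcl2l11 and Bcl2l1. The values for the Bcl2a1 copies carry the uncertainty of shared reads.

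**Figure D4:**
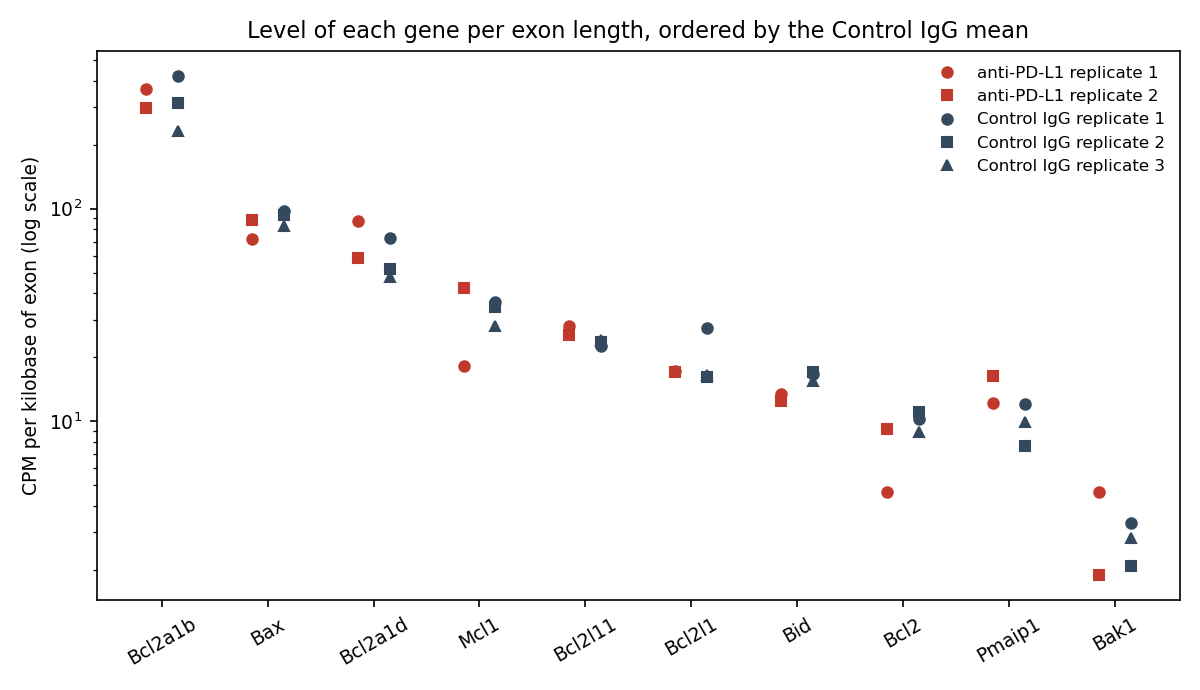
Points give CPM per kilobase of annotated exon, on a log axis, for each library and gene, with anti-PD-L1 left of Control IgG and genes ordered by the control mean. Levels span from 323 CPM per kilobase for Bcl2a1b to 2.76 for Bak1 in control means, far more than any gene differs between groups.

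Ratios of counts within a library do not depend on scaling between libraries. Bcl2l11 had 5.3 and 2.43 counts per Bcl2 count in anti-PD-L1 replicates 1 and 2, against 1.92, 1.87 and 2.4 in Control IgG replicates 1, 2 and 3. This ratio was above every control in both, in replicate 2 only just. Pmaip1 had 0.539 and 0.309 counts per Mcl1 count after anti-PD-L1, against 0.267, 0.177 and 0.282 in controls, again with both above and replicate 2 narrowly. Bcl2l11 and Pmaip1 alone already lay above every control in both anti-PD-L1 libraries. Bcl2 and Mcl1 were lowest in anti-PD-L1 replicate 1. Bcl2l11 per Mcl1 count, likewise a BH3-only gene against a pro-survival gene, overlapped between groups. It was 3.62 and 1.41 after anti-PD-L1 and 1.47, 1.61 and 2.03 in controls. Counts of Bax per Bak1, Bcl2l1 per Bcl2 and Bid per Bcl2l13 overlapped between groups as well. The ratios were picked after the levels had been seen and carry no test. How often ratios of other gene pairs separate the groups was not counted. Of the summed level per kilobase of all 10 genes, the pro-survival genes held 79% and 74.6% after anti-PD-L1 and 78.8%, 74.9% and 71.1% in controls, mostly Bcl2a1b and Bcl2a1d.

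By a measure of likeness over the 5 libraries, the mean absolute difference of centred log2 CPM among 7700 genes of at least 3 on the log2 scale, Bcl2 was nearest to Map3k7 (0.038), Pnn (0.068) and Atpbd4 (0.071). Map3k7, which encodes the kinase TAK1, stood at 11.3 and 24.3 CPM after anti-PD-L1 and at 25.5, 26.1 and 21.7 CPM in controls, low in the same library as Bcl2. Bak1, the gene with the widest range, was nearest to Zfp758 (0.058), Commd10 (0.069) and Plekhf2 (0.072). Mcl1, added after its values had been seen, was nearest to Chd9 (0.055), Arglu1 (0.055) and Mllt3 (0.057). With 5 libraries many genes share any given order, and these genes are given as a description.

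Of 16 other BCL-2 family genes 11 were tested, 8 had a fold change above 0 and 3 below, and none was called, with a median of 0.10. Bmf, a BH3-only gene, had the highest log2 fold change of the list, 1.00 ± 0.64, with 5.65 and 4.77 CPM after anti-PD-L1 and 3.40, 1.87 and 2.53 CPM in controls. It was the only one of the 11 whose groups did not overlap, or 9.09%, beside 17.3% of all tested genes. Bnip3, a mitophagy receptor induced by hypoxia, had a log2 fold change of 0.56 ± 0.32, with 136 CPM in anti-PD-L1 replicate 1 and 70.4 CPM in replicate 2, against 62.4, 82.8 and 63.7 CPM in controls. Bad, a BH3-only gene regulated by phosphorylation, had 0.52 ± 0.37, likewise with replicate 2, at 16.7 CPM, within the controls. Bbc3, which encodes the p53 target PUMA, stood at 2.22 and 5.36 CPM after anti-PD-L1 and at 3.66, 3.08 and 2.38 CPM in controls. Bcl2l2, which encodes BCL-W, stood at 2.59 and 1.71 CPM after anti-PD-L1 and at 0.536, 6.44 and 2.61 CPM in controls. Bcl2a1c had a log2 fold change of 0.02 ± 0.51. Hrk and Bcl2l10 had 0 counts in every library, which allows up to 0.28 CPM in the shallowest.

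Downstream, all 21 genes of the mitochondrial death pathway were tested, with 12 fold changes above 0, 9 below and none called, and a median of 0.08. Aifm1, which encodes the mitochondrial apoptosis-inducing factor, was the 1 gene of the 21 with an unadjusted p under 0.05, beside 2.13% of all tested genes. Aifm1 and Endog were the 2 of the 21 whose groups did not overlap, or 9.52%, beside 17.3% of all tested genes. Aifm1 stood at 43.7 and 53.0 CPM after anti-PD-L1, against 119, 67.0 and 77.5 CPM in controls, a log2 fold change of -0.86 ± 0.32. Endog, which encodes a mitochondrial nuclease, lay below the controls, at 4.08 and 3.95 CPM against 18.0, 6.07 and 4.6 CPM, with -1.25 ± 0.68. Casp9, the caspase activated on the apoptosome, had 1.00 ± 0.69, with 11.9 CPM in anti-PD-L1 replicate 1 and 5.21 CPM in replicate 2, against 1.61, 6.07 and 5.06 CPM in controls.

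Of 19 regulators of the family, which include cytokine receptors, NF-kappaB subunits, p53 and FOXO factors and the enzymes that control MCL-1 turnover, 18 were tested, 8 lay above 0 and 10 below, and none was called, with a median of -0.011. Il2rb, the receptor chain shared by interleukin-2 and interleukin-15, stood at 2228 and 1293 CPM after anti-PD-L1, against 1147, 972 and 1275 CPM in controls, with a log2 fold change of 0.64 ± 0.29. Both anti-PD-L1 libraries were above every control, replicate 2 narrowly. Mdm2, the p53 inhibitor and p53 target, had 0.38 ± 0.26, with 58.8 and 47.5 CPM after anti-PD-L1 and 36.2, 39.9 and 46.2 CPM in controls. Trp53, outside the rule for named genes and chosen after its values were seen, was the other regulator without overlap, at 281 and 280 CPM after anti-PD-L1 and 345, 315 and 292 CPM in controls. The 3 regulators without overlap are 16.7% of the 18, close to the 17.3% of all tested genes. Rel, an NF-kappaB subunit, had 61.9 CPM in anti-PD-L1 replicate 1 and 138 CPM in replicate 2, against 66.8, 66.9 and 69.1 CPM in controls. Rel split the anti-PD-L1 libraries in the same direction as Mcl1.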

How the data were processed

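Poly(A) RNA of 5000 to 30000 sorted cells was amplified by a modified Smart-seq2 protocol and made into libraries by tagmentation, per the labels' protocols. That chemistry marks neither strand nor molecule, so the floor of 3 counts covers counting error only. The 95% intervals of fold changes also hold the spread between libraries. The values deposited by the authors are whole-number read counts per gene, not normalized, and TopHat, HTSeq and mm10 are named per the submitters' processing notes. The sources used here do not give their versions or annotation, or whether reads with several matches were counted, though the counter line for such reads holds 0. Counter lines were left out, namely 7.46% to 15.2% of counts without a feature and 1.38% to 1.51% ambiguous.

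Groups and replicate numbers came from the labels. edgeR 4.0.16 in R 4.3.3 tested anti-PD-L1 (2) against Control IgG (3) with the two-sided quasi-likelihood F-test, TMM and filterByExpr (minimum count 10, minimum total 15), leaving 11299 genes, over all of which Benjamini-Hochberg adjustment was made, with a threshold of 0.05. Standard errors are the log2 fold change divided by the square root of F, and intervals are 95%. Log2 CPM used a prior count of 2. DESeq2 1.42.0 and limma-voom (limma 3.58.1) were alternatives, with other scalings, no filter, a replicate block and libraries left out. The edgeR, DESeq2 and limma steps were tested on simulated data. No library was a copy of another, with chi-square per degree of freedom at least 19.2 between any pair.

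Exon lengths and coordinates come from GENCODE vM21, and upstream sequences from RefSeq, both on GRCm38. Windows of 50 bases were matched on both strands to all GENCODE transcripts. Of the other gene lists, the 3 tested genes of smallest p are named, with Bcl2a1a, Bcl2l2, Bbc3 and Bmf, and genes with patterns like Bcl2 and like the gene of widest range. Bcl2a1c, Bcl2l13, Hrk, Bcl2l10, and Il7r and Casp8 in the closing section, were added after their values were seen. The genes and lists were chosen with earlier results of these data known. Symbols missing from the files were looked up through RefSeq synonyms.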

Additional observations from a re-analysis of the deposited data

How the results depend on the processing

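None of the 10 genes, and none of the other 3 lists' genes, was called under any alternative. The count over all tested genes was 0 by edgeR, with 241 at an unadjusted p under 0.05, and 0 by limma-voom, against 4 by DESeq2, 5 without the low-count filter and 1 without both libraries numbered 1. It was 0 whichever library was left out. Bcl2, Bcl2a1d, Bcl2l11, Bid and Pmaip1 kept the direction of their fold change in all alternatives, which reuse the same libraries. For Bcl2l11, Bid and Pmaip1, whose groups do not overlap, leaving out a library could hardly change it. For Bcl2a1d, 1 alternative was the sum of the Bcl2a1 copies. Among fits without 1 library, log2 fold changes ran from -1.10 to -0.14 for Bcl2, 0.024 to 0.63 for Bcl2a1d, 0.11 to 0.27 for Bcl2l11, -0.40 to -0.27 for Bid, 0.33 to 0.73 for Pmaip1 and -0.32 to -0.041 for Bax. Direction changed within the range -0.83 to 0.36 for Mcl1, -0.55 to 0.78 for Bak1, -0.15 to 0.28 for Bcl2a1b and -0.36 to 0.07 for Bcl2l1, for which 0.070 is the value without Control IgG replicate 1. Without both libraries numbered 1, where a lone anti-PD-L1 library is assumed to vary like the controls, the value was 0.43 for Mcl1, -0.40 for Bak1, 0.051 for Bcl2l1 and 0.00073 for Bax, each on the other side of 0. The cause of these changes was not tested.

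Replicate numbers are shared by both groups, and the labels do not say that they mark a shared day or mouse. Deviations from the group means correlated across genes at 0.331 for the libraries numbered 1 and at 0.374 for those numbered 2, but there are 2 such pairs and the anti-PD-L1 deviations mirror each other. With the replicate block edgeR called 0 genes, and 605 had an unadjusted p under 0.05. Under the block Bcl2a1b had -0.14, on the other side of 0, and Bcl2 had -0.71. Bcl2 was the 1 of the 10 genes among the 605, with an unadjusted p of 0.043 and an adjusted p of 0.819 in edgeR's quasi-likelihood test.

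Levels per kilobase in controls were higher by more than their SD with the longest transcript, at 131 for Bax, 37.5 for Bcl2l11, 35.7 for Bcl2l1, 24.1 for Bid and 12.9 for Bcl2. Bak1, with at most 121 counts per library, is the gene most limited by depth.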

Other observations

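Casp8, the caspase that starts apoptosis from death receptors, was highest in anti-PD-L1 replicate 1. It had 193 CPM in that library and 107 CPM in anti-PD-L1 replicate 2, against 125, 90.4 and 127 CPM in Control IgG replicates 1, 2 and 3. Replicate 2 lay within the controls. Casp8 was not called in edgeR, with a log2 fold change of 0.40 ± 0.31 (SE).

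Of the 21 genes of the mitochondrial death pathway, 6 were highest in anti-PD-L1 replicate 1, or 28.6%, beside 24.3% of all tested genes. More of them, 8 or 38.1%, were highest in Control IgG replicate 1, beside 28.2% of all tested genes. Of the 18 tested regulators of the family, 9 were lowest in anti-PD-L1 replicate 1, or 50%, beside 29.4% of all tested genes, and 8 were highest in replicate 2, or 44.4%, beside 15.9%. Il7r, the interleukin-7 receptor, was one of the 9, at 31.3 CPM in anti-PD-L1 replicate 1 and 69.5 CPM in replicate 2, against 56.9, 66.9 and 58.2 CPM in controls. Bcl2 was low in the same library. These counts describe the libraries, and Il7r and Casp8 were picked after their values were seen.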
